A study of Mus musculus with 16 samples.

Results

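NF-kB is a family of dimeric transcription factors, and the genes described here encode its DNA-binding subunits and the proteins that hold the factor in check. The set was given by name and held 10 genes, of which 9 were measured, among 19505 genes tested. These were Rela, Relb, Rel and Nfkb2 (subunits), Nfkbia and Nfkbie (inhibitors of the IkB family), Bcl3 (a nuclear IkB protein), and Tnfaip3 and Tnip1 (inhibitors that act on ubiquitin signals). Nfkb1 was not analysed here. Each of the 9 had a single probe set, so no choice between probe sets was needed.

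Liver RNA was measured on 1-colour Affymetrix-type arrays in 8 samples of a NASH mouse model and in 8 control samples. NASH, nonalcoholic steatohepatitis, is fatty liver disease with inflammation and cell injury. All 16 came from mice of the C57BL/6 background. The series' title asks about soluble guanylate cyclase stimulation, NF-kB and the inflammasome, and no treated samples were analysed here. The labels do not say how the model was induced and give no age, sex, treatment or time of collection. The labels name separate samples without stating 1 animal for each, so every p-value here refers to sample-to-sample spread, which may be technical. Samples are named by the number in their labels, which for the model includes 1a and 1b.

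In a resting cell the dimers, among them that of RELA with the product of Nfkb1, are held in the cytoplasm by IkB proteins. Signals from receptors for tumour necrosis factor, interleukin-1 or bacterial products activate a kinase complex that marks the IkB proteins for destruction, and the dimers then enter the nucleus. A slower, non-canonical route processes the precursor encoded by Nfkb2 and acts through its dimer with RELB. Several subunit and inhibitor genes are themselves targets of NF-kB, so their transcripts are part of feedback loops. In the liver the pathway is known from both hepatocytes and macrophages. Much of its control is on the protein, which an array of RNA does not show.

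The promoters of 6 members are given first. Their windows differ in the number and place of matches to the kB site, the DNA element that NF-kB binds. Each line runs 5′ to 3′ on the strand of the gene from 250 bases before the annotated start, covers 300 bases of the RefSeq window on build GRCm38.p6, and has the matches to the kB consensus in capitals.
Tnfaip3 promoter, chr10:19015361-19015660, minus strand: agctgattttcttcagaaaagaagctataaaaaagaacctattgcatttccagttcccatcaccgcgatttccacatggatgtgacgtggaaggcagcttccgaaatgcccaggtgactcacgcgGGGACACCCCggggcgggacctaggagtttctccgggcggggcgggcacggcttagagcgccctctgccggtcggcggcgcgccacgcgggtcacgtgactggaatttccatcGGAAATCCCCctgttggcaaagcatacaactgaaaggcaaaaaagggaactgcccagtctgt
Tnip1 promoter, chr11:54962891-54963190, minus strand: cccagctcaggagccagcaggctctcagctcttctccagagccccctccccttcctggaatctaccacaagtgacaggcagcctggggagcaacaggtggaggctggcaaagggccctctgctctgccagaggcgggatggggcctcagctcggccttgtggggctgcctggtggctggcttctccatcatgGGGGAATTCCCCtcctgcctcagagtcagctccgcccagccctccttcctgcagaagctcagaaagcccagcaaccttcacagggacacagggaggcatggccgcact
Nfkb2 promoter, chr19:46304487-46304786, plus strand: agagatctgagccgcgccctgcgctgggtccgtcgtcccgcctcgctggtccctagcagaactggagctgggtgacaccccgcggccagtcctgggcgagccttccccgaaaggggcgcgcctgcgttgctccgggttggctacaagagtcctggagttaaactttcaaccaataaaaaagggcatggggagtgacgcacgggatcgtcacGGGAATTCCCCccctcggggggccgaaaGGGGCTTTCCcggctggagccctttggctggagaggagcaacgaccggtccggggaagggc
Nfkbia promoter, chr12:55492598-55492897, minus strand: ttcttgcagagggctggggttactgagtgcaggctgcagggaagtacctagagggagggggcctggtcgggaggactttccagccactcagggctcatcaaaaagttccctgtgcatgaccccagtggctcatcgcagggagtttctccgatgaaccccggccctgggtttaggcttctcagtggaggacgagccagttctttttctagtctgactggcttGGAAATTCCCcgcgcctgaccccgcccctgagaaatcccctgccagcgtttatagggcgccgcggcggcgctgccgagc
Bcl3 promoter, chr7:19822706-19823005, minus strand: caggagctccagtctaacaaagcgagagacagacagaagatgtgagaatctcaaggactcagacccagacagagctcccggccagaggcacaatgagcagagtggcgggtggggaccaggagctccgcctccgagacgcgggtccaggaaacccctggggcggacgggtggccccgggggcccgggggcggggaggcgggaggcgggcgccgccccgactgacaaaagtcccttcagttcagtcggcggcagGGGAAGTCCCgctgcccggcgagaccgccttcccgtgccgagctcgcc
Rela promoter, chr19:5637291-5637590, plus strand: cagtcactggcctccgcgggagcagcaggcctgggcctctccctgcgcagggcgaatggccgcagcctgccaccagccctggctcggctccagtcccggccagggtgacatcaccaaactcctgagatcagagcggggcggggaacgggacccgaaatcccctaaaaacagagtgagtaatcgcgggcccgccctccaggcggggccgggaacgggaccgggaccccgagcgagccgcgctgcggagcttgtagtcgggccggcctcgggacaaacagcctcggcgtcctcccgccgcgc

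Of the 9 measured members, 8 matched a promoter window. The kB consensus was searched on both strands, with overlapping matches counted, after the 2 other forms given below had been searched. It was found for 7 of these 8, counting a match in any of their 11 windows. Of the 32851 single RefSeq promoter windows of the same length 4.51% held it, so these shares are per gene and per window. Rela, the exception, had no match in its window. The second window of Tnfaip3 held none. The matches in Tnfaip3 shown began 125 and 12 bases before the annotated start. Those in Tnip1 overlapped each other and began 58 to 56 bases before it. Nfkb2 had 3 annotated windows, and the one shown held 3 matches. The other windows of Nfkb2 overlap and share a single match, which is the only one in the last of them. The match of Bcl3 began 2 bases after the start, and Rel and Nfkbie, not shown, had matches 92 and 106 bases before it. A stricter form of the site that fixes all but 1 base was found for 2 members, Nfkb2 and Nfkbia, and in 0.411% of all windows. A broad form that fixes only the outer bases was found in all 8 members and in 50.8% of all windows. These matches describe letters in a window and are not measurements of binding.

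In the NASH model livers 7 of the 9 genes rose, Bcl3 fell, and Rela did not pass the test. Tnfaip3, which encodes the ubiquitin-editing enzyme A20, rose 4.54-fold and Nfkb2 2.42-fold. Tnip1, which encodes a partner of A20, rose 1.77-fold. Relb rose by a measured 1.70-fold, with 6 of its 8 control values below the background floor, so that the size of its rise is uncertain. Nfkbia, Nfkbie and Rel rose by 1.38-fold, 1.38-fold and 1.30-fold, and Bcl3 fell to 0.508 of its control level. Over all genes 13.2% were called higher and 13.4% lower, and 26.6% were called in either direction. A call was an adjusted p under 0.05 in limma, two-sided, with Benjamini-Hochberg adjustment over all 19505 genes. The median difference of the 9 members was 0.47 on the log2 scale, against -0.04 over all genes. The members were chosen by name with earlier results of these data known, so the contrast with the background is a description.

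**Figure D1:**
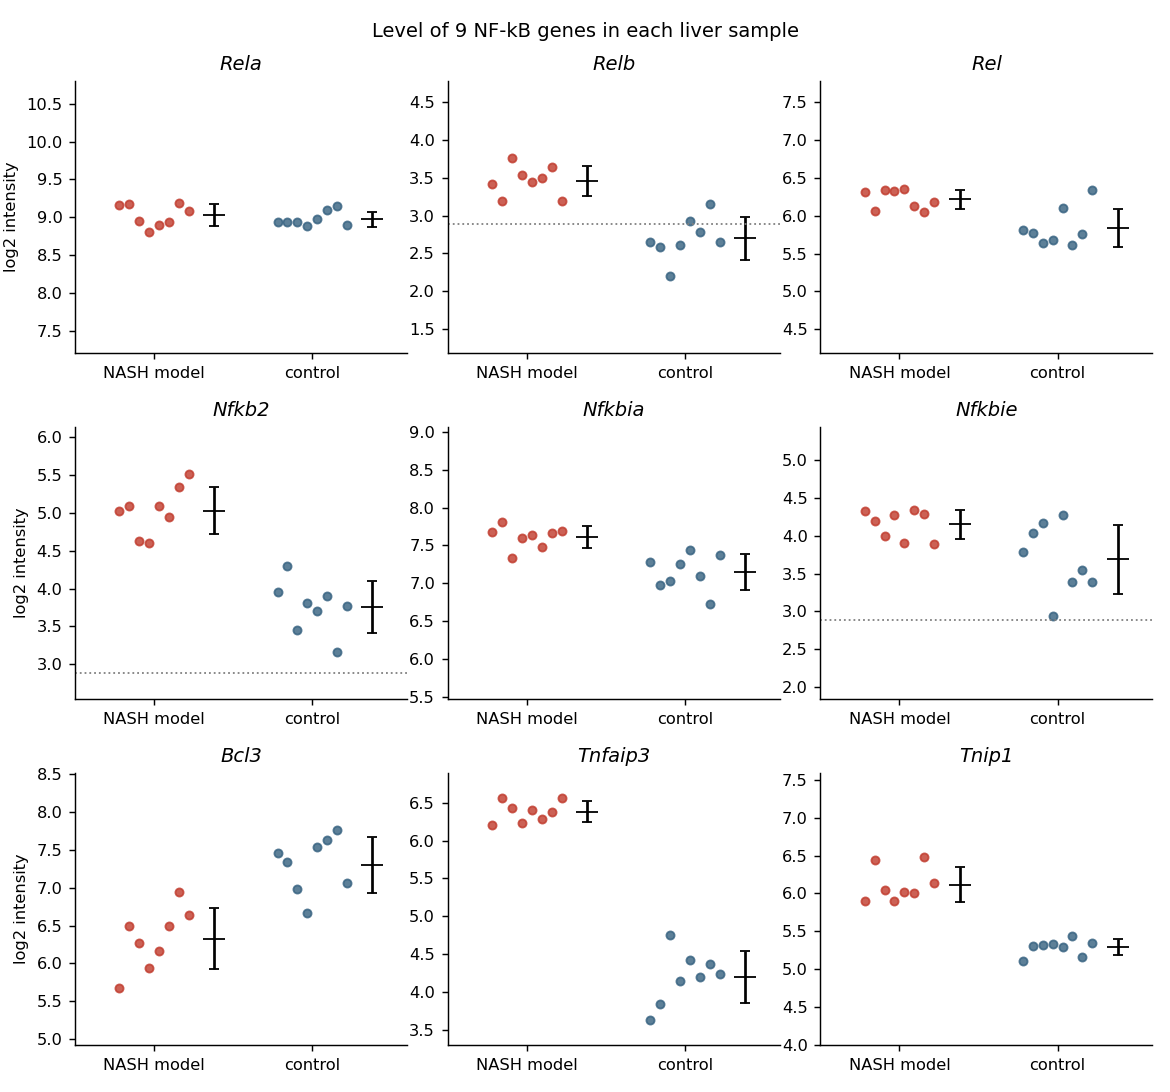
The log2 intensity of each of the 9 genes is plotted for the 8 NASH model samples (left in each panel) and the 8 controls, with the mean and SD as a bar, and every panel spans the same number of log2 units. The dotted line, drawn where a panel reaches it, is the background floor of 2.89. The groups are apart in Relb, Nfkb2, Tnfaip3 and Tnip1 and coincide in Rela.

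Rela encodes p65, the subunit that carries the main transactivation domain of canonical NF-kB. Its log2 intensity ran from 8.81 to 9.19 in NASH model livers with a median of 9.01, against 8.88 to 9.15 in control livers with a median of 8.93. The groups overlapped, with 3 NASH model samples above all controls and 1 below them. The difference was 0.05 ± 0.08 (SE, n = 8 per group, limma adjusted p = 0.721), and its 95% interval ran from -0.12 to 0.22. It turned to -0.068 when arrays were centred on their medians, which also missed the threshold.

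Relb encodes the partner of the processed Nfkb2 product in the non-canonical route. Its log2 intensity ran from 3.19 to 3.76 in NASH model livers with a median of 3.47, against 2.20 to 3.16 in control livers with a median of 2.66. All 8 NASH model samples lay above the highest control, control 9. The rise was 0.76 ± 0.12 (SE, n = 8 per group, limma adjusted p = 7.54e-05). Of the controls, 6 lay below the background floor of 2.89, the level that 95% of the values of 1412 odorant and pheromone receptor genes did not exceed. The control level of Relb was thus mostly not distinguishable from background, and all 8 NASH model samples lay above it.

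Rel encodes c-Rel, a subunit best known from lymphoid and myeloid cells. It ran from 6.05 to 6.35 in NASH model livers with a median of 6.25, against 5.61 to 6.34 in control livers with a median of 5.76 (log2 intensity). Controls 6 (6.11) and 10 (6.34) lay within the range of the model, and 1 NASH model sample exceeded control 10. The rise was 0.38 ± 0.11 (SE, n = 8 per group, limma adjusted p = 0.0108). The call was lost with a score of circadian clock genes as a covariate (limma adjusted p = 0.0683).

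Nfkb2 encodes the precursor p100, which acts as an inhibitor until it is processed to p52. Its log2 intensity was between 4.61 and 5.51 in NASH model livers with a median of 5.06, against 3.17 to 4.30 in control livers with a median of 3.79. The groups did not overlap, as was the case for 4 of the 9 members, while 9.53% of all genes had both a call and groups that did not overlap. The rise was 1.27 ± 0.15 (SE, n = 8 per group, limma adjusted p = 2.94e-06).

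Nfkbia encodes IkB-alpha, the inhibitor that is destroyed and resynthesised in each round of canonical signalling. It ran from 7.34 to 7.81 in NASH model livers with a median of 7.65, against 6.72 to 7.44 in control livers with a median of 7.17 (log2 intensity). NASH model 2 was the one model sample within the range of the controls. The rise was 0.47 ± 0.11 (SE, n = 8 per group, limma adjusted p = 0.00222). It too was no longer called with the clock score as a covariate (limma adjusted p = 0.0987).

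Nfkbie encodes IkB-epsilon, a related inhibitor with delayed resynthesis. Its log2 intensity ran from 3.89 to 4.34 in NASH model livers with a median of 4.24, against 2.94 to 4.27 in control livers with a median of 3.67. The controls were the more scattered group, with an SD of 0.193 in NASH model livers and 0.456 in control livers. The rise of 0.46 ± 0.16 (SE, n = 8 per group) passed narrowly (limma adjusted p = 0.0412). The call was lost in 10 of the 16 analyses that left out 1 sample, where the rise ranged from 0.35 without control 5 to 0.54, with adjusted p up to 0.0779, and with the clock score as a covariate (limma adjusted p = 0.0727).

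Bcl3 encodes an atypical IkB protein of the nucleus that binds p50 and p52 dimers and can activate or repress their targets. Its log2 intensity ran from 5.68 to 6.94 in NASH model livers with a median of 6.38, against 6.66 to 7.76 in control livers with a median of 7.40. Of the model samples, 7 lay below the lowest control, control 5, and NASH model 6 lay within the range of the controls. The fall was -0.98 ± 0.18 (SE, n = 8 per group, limma adjusted p = 0.000283), and Bcl3 was the only one of the 9 members that was called lower. The call was lost when a score of circadian clock genes, described with its values after the other members, was added to the fit.

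Tnfaip3 encodes A20, which removes and rebuilds ubiquitin chains on signalling proteins upstream of the IkB kinase. Its log2 intensity ran from 6.20 to 6.57 in NASH model livers with a median of 6.39, against 3.63 to 4.76 in control livers with a median of 4.21. The lowest model sample lay far above the highest control, control 4. The rise was 2.18 ± 0.13 (SE, n = 8 per group, limma adjusted p = 1.85e-10) and ranked 115th from the top among the 19505 differences. The model samples were tightly grouped, with an SD of 0.136 in NASH model livers and 0.347 in control livers.

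Tnip1 encodes ABIN1, a ubiquitin-binding protein that brings A20 to its substrates. It ran from 5.90 to 6.48 in NASH model livers with a median of 6.03, against 5.11 to 5.44 in control livers with a median of 5.32 (log2 intensity). The groups did not overlap. The rise was 0.82 ± 0.10 (SE, n = 8 per group, limma adjusted p = 2.84e-06).

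Markers of macrophages differed strongly in the same arrays. Of 13 measured genes of recruited and lipid-associated macrophages 12 rose and 0 fell, and the mean log2 level of the list was 6.92 to 7.55 in NASH model livers, against 3.64 to 4.26 in control livers. The largest log2 rises in the list were those of Mmp12 (8.26 ± 0.17), Gpnmb (7.51 ± 0.19) and Atp6v0d2 (4.74 ± 0.22). Their lowest control values, 2.47, 2.05 and 2.60, lay below the background floor of 2.89, so the exact sizes are uncertain. In the same list 1 gene, Cx3cr1, was below the floor in all controls. In bulk liver, more cells of a type and more RNA per cell cannot be told apart. Of 11 Kupffer cell markers 4 were higher and 4 lower, with list means of 6.03 to 6.66 in NASH model livers, against 6.07 to 7.19 in control livers. Stellate cell and myofibroblast markers were higher in 9 of 11 (list means 6.71 to 7.35 in NASH model livers, against 5.26 to 5.81 in control livers). Cholangiocyte markers were higher in 6 of 8 (3.64 to 6.15, against 3.36 to 4.18 in control livers). Endothelial markers were higher in 3 of 10 and lower in 5 (5.69 to 6.08, against 5.72 to 6.12 in control livers). T, B and NK cell markers were higher in 4 of 11 and lower in 1, with list means of 3.21 to 3.48 in NASH model livers, against 2.92 to 3.304 in control livers. These means lie near the floor. Of the 11 genes 2 lay below it in all controls and 1 in all NASH model samples, so sizes of change are uncertain. Neutrophil markers were higher in 2 of 9 (3.13 to 3.68, against 2.64 to 3.62 in control livers). Over all genes 13.2% were called higher and 13.4% lower. With so few genes the neutrophil count is no result about that list. Hepatocyte markers, which check the labelled tissue, were by far the most intense list (10.35 to 10.56 in NASH model livers, against 10.67 to 10.82 in control livers), with 4 of 11 lower and 0 higher. The part of these cell types in the changes of the 9 genes was not tested.

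Whether the members changed by unequal amounts was tested on the difference between 2 members within each array, which a shift of a whole array leaves as it is. All 36 pairs were compared with a two-sided exact permutation test over 12870 assignments, with adjustment over the pairs, and 27 passed. Tnfaip3 differed from each of the other 8 members, and so did Bcl3. The rise of Tnfaip3 exceeded that of Nfkb2 by 0.91 ± 0.25 (SE, n = 8 per group, exact permutation test, adjusted p = 0.00453) and that of Tnip1, its partner, by 1.36 ± 0.13 (exact permutation test, adjusted p = 0.00035). It exceeded the change of Nfkbia, the other classical feedback inhibitor, by 1.72 ± 0.17 (exact permutation test, adjusted p = 0.00035).

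Among the subunits, the change of Rela was smaller than that of Nfkb2 by 1.23 ± 0.16, than that of Relb by 0.71 ± 0.13 and than that of Rel by 0.33 ± 0.14 (SE, exact permutation test, adjusted p = 0.00035, 0.00035 and 0.0412). The changes of Nfkb2 and Relb, which encode partners, differed by a measured 0.51 ± 0.24, which did not pass (exact permutation test, adjusted p = 0.0554). Every difference that involves Relb rests on controls of which 6 of 8 lay below the background floor, so its size, and its direction against Nfkb2, are not established. The changes of Nfkbia and Nfkbie differed by 0.0046 ± 0.20 (exact permutation test, adjusted p = 0.982), with a 95% interval from -0.42 to 0.43.

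**Figure D2:**
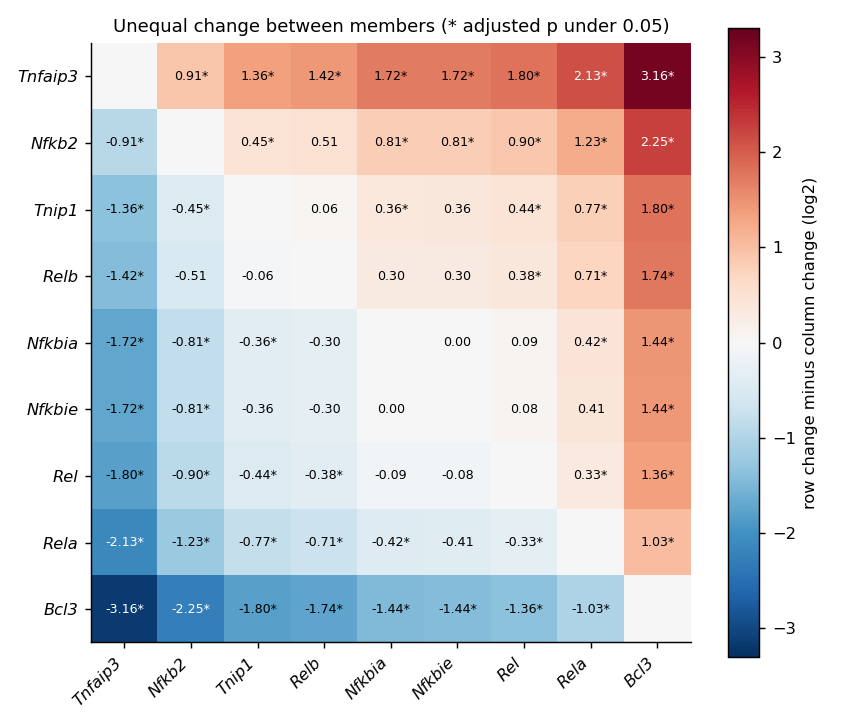
Each cell gives the change of the row gene (NASH model minus control, log2) minus that of the column gene, with genes ordered by their change and an asterisk where the exact permutation test had an adjusted p under 0.05. Asterisks fill the rows of Tnfaip3 and Bcl3, and 27 of the 36 pairs carry one.

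Of 17 circadian clock genes 5 were higher and 6 lower in the NASH model livers, against 13.2% higher and 13.4% lower over all genes. Bcl3 varied with the clock genes among the controls. A clock score was taken as the first principal component of these genes within groups and held 59.1% of their within-group variance. Arntl, which encodes the clock activator BMAL1, weighed most on its positive side, and Ciart, Per3 and Dbp most on its negative side. The score ran from -1.05 to -0.47 in NASH model livers with a median of -0.69, against -1.12 to 1.595 in control livers with a median of 0.85. Control 5 had the lowest score of all samples and was also the control with the lowest Bcl3. Its Bcl3 level, 6.66, still lay above that of 7 of the 8 model samples. The other 7 controls had scores above every model sample. Within the 8 controls the log2 intensity of Bcl3 correlated with the score at Pearson r = 0.95 (exact permutation p = 0.000248, adjusted p = 0.00446) and Spearman rho = 0.98 (exact permutation p = 0.000397, adjusted p = 0.00714). Adjustment was over 18 relations, for 9 members in each of both groups. Without the 2 controls farthest from the median score, r was 0.84. A correlation this far from 0 was found for 0.0974% of all genes in the controls.

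Within the 8 NASH model samples, where the score varied less, r for Bcl3 was 0.57 (exact permutation p = 0.145, adjusted p = 0.434) and rho was 0.48 (exact permutation p = 0.243, adjusted p = 0.625). With the score as a covariate the difference of Bcl3 was -0.41 ± 0.20 in place of -0.98, and the call was lost (limma adjusted p = 0.194). The calls of Rel (0.45 ± 0.16, limma adjusted p = 0.0683), Nfkbia (0.41 ± 0.16, 0.0987) and Nfkbie (0.66 ± 0.24, 0.0727) were lost too, with wider errors and differences of similar or larger size. Tnfaip3 (2.17 ± 0.20), Nfkb2 (1.27 ± 0.23), Tnip1 (0.86 ± 0.15) and Relb (1.03 ± 0.16) still passed in that fit (limma adjusted p up to 0.000923), so 4 members were higher and 0 lower. The score nearly coincides with the group, and the time of collection is not in the labels, so their parts in the difference of Bcl3 cannot be told apart here. Other genes also varied among controls, such as the reported NF-kB target Lcn2 (SD 2.57 in control livers, 0.198 in NASH model livers). The relation of Bcl3 to that spread was not tested.

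**Figure D3:**
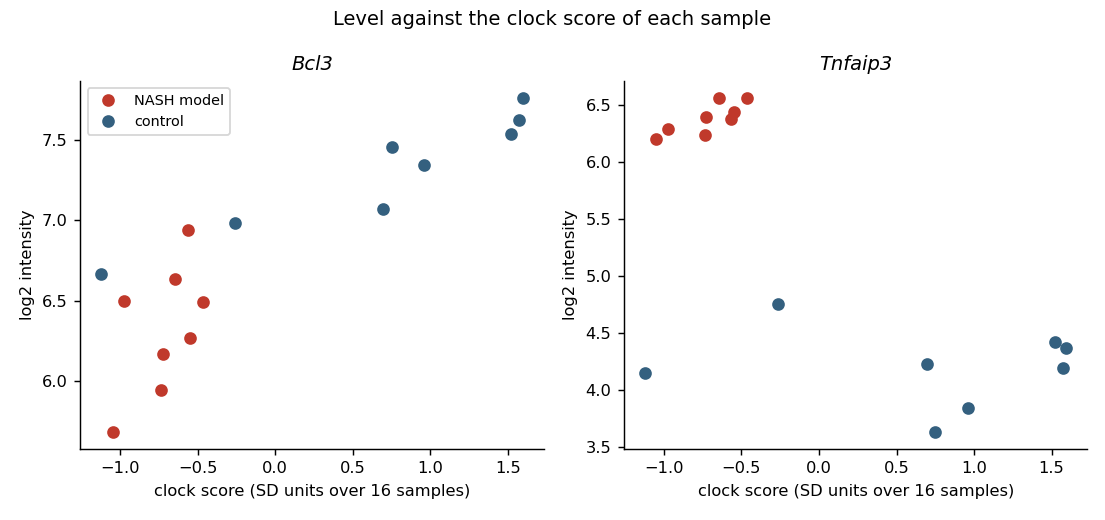
The log2 intensity of Bcl3 and of Tnfaip3 is plotted against the clock score of each sample, in SD units over the 16 samples, for NASH model livers and control livers. Bcl3 lies higher in controls with a higher score. Control 5 lies at the left with the model samples, and its Bcl3 is above that of 7 of them. Tnfaip3 is higher in all model samples than in any control.

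**Figure D4:**
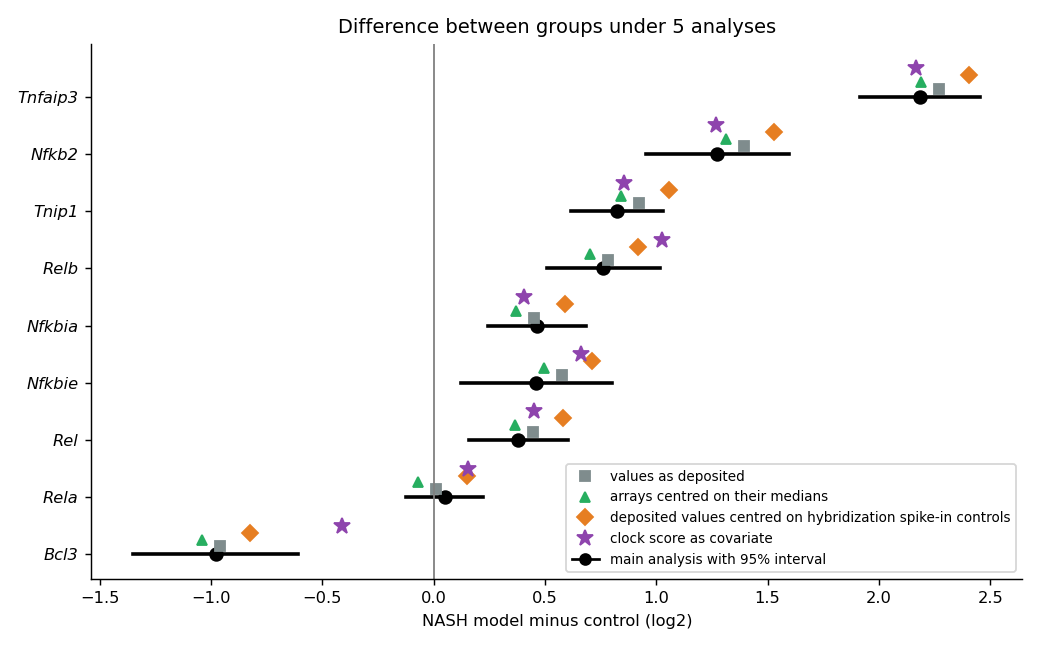
The difference between the groups (NASH model minus control, log2) is shown for each gene with its 95% interval, and beside it the value with the arrays as deposited, centred on their medians or on spike-in controls, and with the clock score as a covariate. Rela stays around 0, and the clock score moves Bcl3 to -0.41.

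The other genes of the pathway were described in 4 lists, of which 81 of 89 genes were measured. Of 32 reported NF-kB target genes 20 rose and 0 fell, with a median difference of 0.93 on the log2 scale, against -0.04 over all genes. The shares called over all genes were 13.2% higher and 13.4% lower. The largest rises were those of Bcl2a1b, a survival gene of the Bcl2 family (3.12 ± 0.19), of the plasminogen activator Plau, and of Il1rn, the interleukin-1 receptor antagonist (2.43 ± 0.21). Plau lay below the floor in all controls and rose at least 4.48-fold (limma adjusted p = 5.6e-12). The list was not uniform, since 12 of its genes did not pass. Among these were Sod2 at -0.01 ± 0.08 and Il1b at 0.01 ± 0.22, named after their values were seen. Il6, also not called, lay below the floor in all samples, and Sele, Ptgs2, Nos2 and Mmp9 had means near it. Lcn2 and Saa3 varied widely among controls (SD 2.57 and 1.90). A missing call says little for these genes, also named after their values were seen. Bcl2a1b belongs to a cluster of near-identical genes, so its probe set may read more than 1 of them.

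Of 12 receptors that feed the pathway 5 rose and 1 fell, with a median difference of 0.35, against 13.2% higher and 13.4% lower over all genes. The lipopolysaccharide co-receptor Cd14 rose by 2.003 ± 0.26 on the log2 scale, the lipopeptide receptor Tlr1 by 1.81 ± 0.20 and the lipopolysaccharide receptor Tlr4 by 1.14 ± 0.14. The receptor that fell was Il1r1, which binds interleukin-1, at -1.03 ± 0.21 (limma adjusted p = 0.000845, named after its values were seen). Of 16 other inhibitors and ubiquitin editors 6 rose and 2 fell, with a median of 0.22, beside those same shares over all genes. The atypical IkB genes Nfkbid (0.75 ± 0.17) and Nfkbiz (0.71 ± 0.19) and the A20-binding protein gene Tnip3 (0.61 ± 0.14) had the largest rises. Nfkbid lay near the background floor of 2.89, so the size of its rise is uncertain. Its log2 intensity ran from 2.87 to 4.22 in NASH model livers, against 2.44 to 3.46 in control livers. Nfkbid and Nfkbiz were thus called higher where Bcl3, of the same class, was called lower. The call of Bcl3 was lost with the clock score as a covariate (-0.41, limma adjusted p = 0.194).

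Of 21 kinases and adaptors 4 rose and 3 fell, with a median of 0.00, against 13.2% higher and 13.4% lower over all genes. With so few genes these counts lie near the background and are no result about the list. Map3k14, which encodes the kinase NIK that starts processing of the Nfkb2 product, rose by 1.005 ± 0.24 on the log2 scale (limma adjusted p = 0.0035). Its log2 intensity ran from 5.23 to 5.84 in NASH model livers, against 3.44 to 5.33 in control livers, so the groups overlapped. The adaptor Bcl10 rose by 0.73 ± 0.18 and the IkB kinase homologue Ikbke by 0.55 ± 0.13. With the clock score as a covariate 0 kinases and adaptors were called in either direction, and with spike-in centring 7 were higher and 0 lower.

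**Figure D5:**
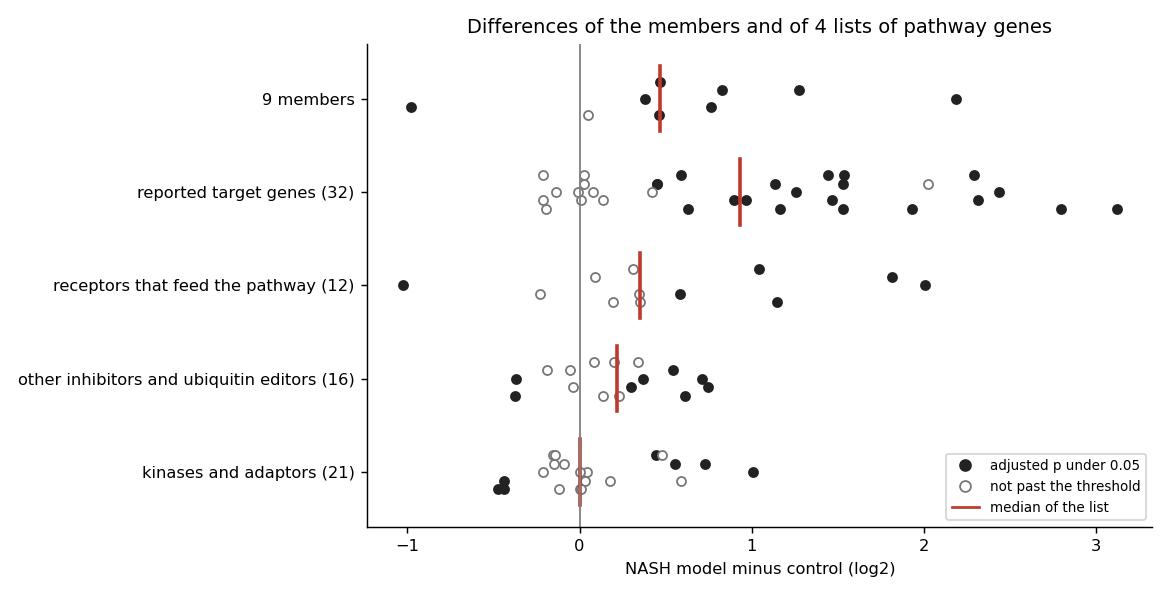
Each point is the difference of 1 gene between NASH model and control livers (log2), filled where the limma adjusted p was under 0.05, for the 9 members and the 4 lists with their measured sizes, and the red bar is the median of the row. The target genes reach furthest to the right, and the kinases and adaptors centre on 0.

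The genes whose log2 profile over the 16 samples lay nearest to that of Tnfaip3, after each gene's control mean was taken off, were the creatine transporter Slc6a8, the protease inhibitor Serpinb6a and the small GTPase Rab8b, with root mean square differences of 0.249, 0.255 and 0.277. For Nfkb2 they were the histone gene H2ac15 (0.239), Rftn1 (0.280) and Cmtm3 (0.285). These distances describe likeness of level changes only. Within the groups the members did not move together in a way that passed a test. Over 72 relations between members, 36 in each group of 8, Pearson r ran from -0.83 to 0.81, with 6 at an unadjusted p under 0.05 and 0 after adjustment (exact permutation tests, lowest adjusted p = 0.289). Over 18 relations of the members with the mean level of the macrophage list, r ran from -0.63 to 0.42, with 0 at an unadjusted p under 0.05 (exact permutation tests, lowest adjusted p = 0.913). With 8 samples a group, only strong correlations could be detected.

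The scaling of the arrays moved the balance of all calls more than those of the members. Higher genes made up 49.6% of all calls, 39.2% with arrays centred on their medians and 78.9% with deposited values centred on hybridization spike-in controls, where the median difference of all genes was 0.10 in place of -0.04. In each of the 4 other scalings tried 7 members were higher and 1 lower. Tnfaip3 ranged from 2.19 to 2.40 on the log2 scale across those 4, and Bcl3 from -1.04 to -0.82.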

How the data were processed

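RNA of 16 mouse liver samples (8 NASH model, 8 control) was measured on arrays. Per the labels' protocols, TRIzol was used for RNA extraction and Affymetrix biotin chemistry for labelling. The authors deposited log2 intensities for 29129 probe sets, from 0.62 to 12.7. The summarisation, normalization and array build are not given in the sources used here. The number of arrays limits the precision, and depth has no meaning for intensities.

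The column medians differed by 0.14, so the values were quantile-normalized, which moved no value by more than 0.16. These medians ran from 3.58 to 3.66 in NASH model samples and from 3.52 to 3.56 in controls. The shift that was removed thus followed the group. The platform annotation gave 1 symbol to 19572 probe sets, and per gene the row with the highest mean was kept. Groups were compared with limma 3.58.1 in R 4.3.3 (lmFit and eBayes, group as the only term). Exact permutation tests, correlations and motif searches used Python 3.11.15, numpy 2.4.6 and scipy 1.17.1. The limma step was tested on simulated data.

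The members and lists were chosen with earlier results of these data known. The text names all 9 measured members and, per list, up to 3 of the called genes with the largest change. It also names the 3 genes nearest in profile to each called member with a log2 difference over 1. Predicted genes are not named. The correlations with the clock score and the kB consensus were added after the data were seen. The design foresaw 10 members, and 9 were measured, so 36 pairs and 18 relations were tested. NASH model 1a and 1b were kept as 2 samples, although the labels do not say whether they come from 1 animal. The SD of their differences was 0.387, against 0.340 to 0.466 in the 27 other model pairs. Such a likeness of spreads cannot show that the 2 samples are independent. The alternatives covered scaling, a filter on dim genes, probe set averaging, variance models, sample weights, omitted samples, a replicate block and the clock score. Promoter sequences are from RefSeq (GRCm38.p6), matched by symbol.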

Additional observations from a re-analysis of the deposited data

How the results depend on the processing

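Across the 29 alternative fits, Tnfaip3, Nfkb2 and Tnip1 passed in every one, and Relb in the 28 that tested it, since it was among the dimmest 40% of genes. Rel, Nfkbia and Bcl3 lost the call with the clock score as a covariate only, where Bcl3 was at -0.41. Nfkbie lost it there too, in 10 of the 16 fits without 1 sample, and with NASH model 1a and 1b averaged (0.45, adjusted p = 0.065) or left out (0.42, 0.11). Rela turned to -0.068 with median centring (adjusted p = 0.555) and was not called in any fit. With each sample left out in turn, 6 to 7 members were higher and 1 lower, Bcl3 ranged from -1.07 to -0.89 and Tnfaip3 from 2.10 to 2.26. Without NASH model 2 and 7, 7 were higher and 1 lower.

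With the clock score, 4 members were higher and 0 lower, 1523 of all genes were higher and 1254 lower (2577 and 2619 in the main analysis), and 1 pathway gene was lower in place of 6. With spike-in centring 973 genes and 1 pathway gene were lower. The causes were not tested. The replicate block gave 6 members higher and 1 lower, with Nfkbie at 0.40 (adjusted p = 0.147), and 2063 genes higher and 1861 lower. The labels do not say that the 6 shared numbers pair the samples. Correlations of deviations across genes for these numbers ran from -0.0235 to 0.0588, which does not exclude a pairing that acts on few genes. Unequal change passed in 26 to 28 of the pairs under its 18 alternatives, which left out or averaged samples. In the exact permutation tests of single members, without adjustment, Nfkbie gave p = 0.019 and Rela 0.436, and the other 7 gave at most 0.00404.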

Other observations

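The clock score was also set against the other 8 members within groups. None of these relations passed after adjustment over the 18 (exact permutation tests). Within the 8 NASH model samples, r was 0.78 for Tnfaip3 (exact permutation p = 0.0248, adjusted p = 0.223) and 0.71 for Tnip1 (exact permutation p = 0.0469, adjusted p = 0.228), with rho of 0.86 and 0.84 (exact permutation p = 0.0107 and 0.0131, both adjusted p = 0.0692). Within the 8 controls, r was 0.70 for Rela (exact permutation p = 0.0506, adjusted p = 0.228), with rho of 0.83 (exact permutation p = 0.0154, adjusted p = 0.0692).

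Lcn2, a siderophore-binding protein gene of the acute phase and a reported NF-kB target, had a difference of 2.02 ± 0.78 that did not pass (limma adjusted p = 0.063). Its control values were widely spread, from 5.54 to 11.95, against 11.10 to 11.65 in NASH model livers (log2 intensity). It was named after its values were seen, as were the kinase adaptors Tab2 (-0.48 ± 0.12), Tab3 (-0.44 ± 0.10) and the interleukin-1 receptor kinase gene Irak2 (-0.44 ± 0.12), the 3 genes of the kinases and adaptors that fell. The dispersion of the members differed in places, with an SD of Rel of 0.127 in NASH model livers and 0.252 in control livers, and an SD of Tnip1 of 0.228 in NASH model livers and 0.105 in control livers. Equality of the spreads was not tested. No sample lay outside its group by Dixon's rule in any of the 18 groups of member values.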
